A study of Bos taurus with 12 samples.

Results

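The high and low methylated-DNA of tender beef was compared as the sets of places in the genome where peaks were called. The comparison used the libraries HTE_1 and HTE_2 (high eluate) and LTE_1 and LTE_2 (low eluate), 4 of the 12 libraries of the series. Peaks of these 4 libraries on the 29 autosomes that shared at least 1 bp were joined into regions. This gave 28422 regions from 50277 peaks, where all 12 libraries together gave 74459 regions. Of the 28422 regions, 4472 had a peak in both high libraries and in no low library (high-only), 2100 had a peak in both low libraries and in no high library (low-only), and 3497 had a peak in every one of the 4 libraries (all-4).

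Genomic DNA came from longissimus muscle of Angus steers that were slaughtered as yearlings. The tender and tough groups had been set by shear force of the aged meat, and 2 animals per group were taken at random for sequencing. The sample labels name the muscle longissimus dorsi and the study's methods longissimus lumborum, and the tissue is whole muscle in which the cell types were not separated. The labels describe the 4 libraries as the high gradient and low gradient elutes of tender beef. The protocol gives the high methylation part to the low concentration buffer, but a supplementary note gives HTE to high salt, and for this reason only the eluate names are used here. Each capture was eluted serially, so the high and low libraries are fractions of DNA from the same 2 animals. Which high library belongs with which low library is not stated in the labels. The medium eluate of tender beef (MTE) and the high, medium and low eluates of tough beef (HTO, MTO and LTO), each with 2 libraries, served only to look up the regions found in the 4 libraries.

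MBD-seq captures sheared DNA with the methyl-CpG binding domain of a protein, so a fragment is held more firmly the more methylated CpGs it carries. Stepwise elution with rising salt therefore sorts the captured fragments by their density of methylated CpGs. In mammals most CpGs are methylated outside CpG islands, and dense methylated CpGs are known from repeated sequences and from CpG-rich DNA near chromosome ends. A peak reports enrichment of captured fragments at a place in the genome and does not give a methylation level of single cytosines.

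The 2 eluates differed in fragment length, duplicates and the depth left after duplicate removal. Mapped tags numbered 9031429 and 9575629 in HTE_1 and HTE_2 and 8162432 and 12051816 in LTE_1 and LTE_2, so the eluates overlapped. Of these tags, 50.1% and 50.6% were left in the high and 70.7% and 59.5% in the low libraries. After duplicate removal 4526538 and 4843388 tags were left in HTE_1 and HTE_2, and 5770411 and 7165381 in LTE_1 and LTE_2, so both low libraries were deeper at this step. The fragment length estimated by the peak caller was 179 and 196 bp in the high and 155 and 147 bp in the low libraries. On the autosomes the high libraries had 11057 and 12784 peaks and the low libraries 9555 and 16881. The numbers of the low libraries lay on both sides of the high ones, and the means on the log2 scale differed by -0.10 (two-sided exact permutation test, p = 1). Per 1000000 tags left there were 2541 ± 139 peaks in the high and 2006 ± 495 in the low libraries (SD, n = 2), and here the eluates did not overlap (exact permutation test, p = 0.333). With 2 libraries against 2, 0.333 is the smallest p this test can give, so no difference between the eluates could pass a threshold of 0.05. The tests take the 4 libraries as independent, although they come from 2 animals, and all p-values measure only the spread between these libraries.

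Most regions were not shared between the eluates. The high-only regions made up 15.7% of all regions (Wilson 95% interval 15.3 to 16.2%), the low-only regions 7.39% (7.09 to 7.70%) and the all-4 regions 12.3% (11.9 to 12.7%), intervals that cover counting error only. The largest pattern was a peak in LTE_2 alone, with 9216 regions, and peaks in HTE_2, LTE_1 or HTE_1 alone followed with 2903, 2796 and 1276 regions. Regions with a peak in exactly 1 high and 1 low library were few, between 61 and 271 for each of the 4 such pairs. The requirement of both libraries of an eluate set the size of the classes. Without HTE_1 the high-only class held 7414 regions, and without LTE_1 and LTE_2 in turn the low-only class held 11360 and 4952.

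**Figure D1:**
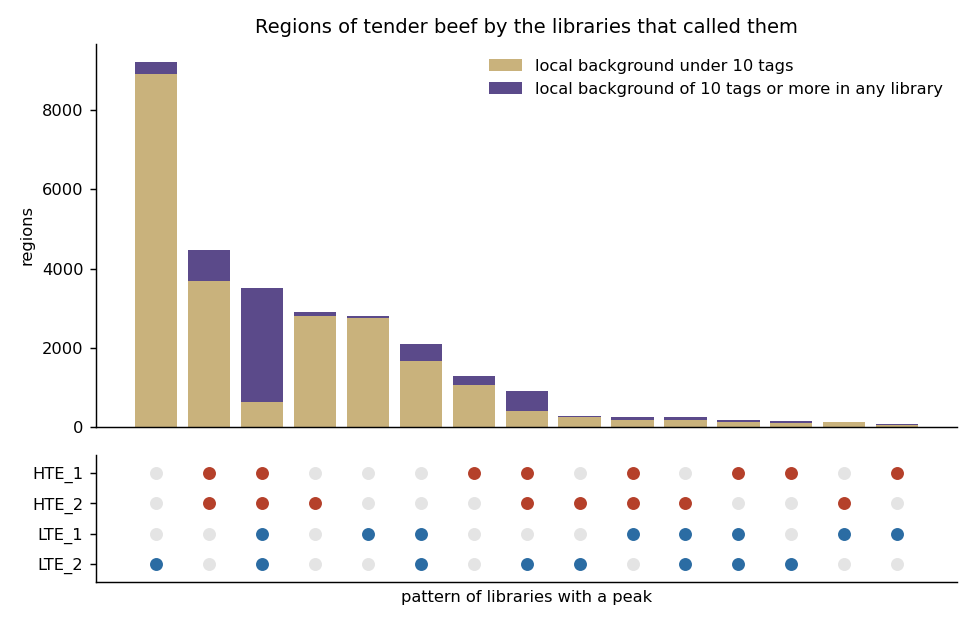
Number of autosomal regions for each of the 15 patterns of libraries with a peak (filled dots below each bar, red for high and blue for low libraries), split by the local background of their peaks. The pattern with all 4 libraries has the most purple regions, 2882 of 3497, whereas the high-only and low-only bars are mostly of low background.

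The all-4 regions lay mainly where the surroundings of the peak were themselves covered by many tags. The fold enrichment in a peak list is the pileup plus 1 over the local background plus 1, where the pileup is the number of extended tags at the summit and the background is the mean over a 10 kb window or the whole genome, whichever is larger. The background was recovered from these 2 columns, and its minimum in HTE_1, 0.312 tags, equalled the genome-wide mean of the tags. A region was called high-background when the value reached 10 tags in any library, a limit chosen after the values were seen. An all-4 region has peaks of 4 libraries that can reach the limit and an eluate-only region those of 2, which favours the all-4 class. The window also holds the peak's own tags and those of peaks beside it. By this measure 5548 regions (19.5%) were high-background, and they held 82.4% of the all-4 regions (2882, Wilson 95% interval 81.1 to 83.6%), 17.8% of the high-only regions (798) and 20.7% of the low-only regions (435). With limits of 5 and 20 tags the share of the all-4 regions was 86.0% and 74.7%. In HTE_1, HTE_2, LTE_1 and LTE_2 the median background of single peaks was 34.9, 41.2, 26.7 and 33.0 tags in all-4 regions. In regions of their own eluate only it was 0.79, 1.06, 0.62 and 0.72 tags. Outside these places 3674 high-only, 1665 low-only and 615 all-4 regions remained. Whether the high-background regions lie in repeated sequence was not tested, since no genome of the build was used here.

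Over all places together, the peaks in all-4 regions were tall and wide, but their enrichment over the surroundings was low. In HTE_1, HTE_2, LTE_1 and LTE_2 the median pileup of the peaks in all-4 regions was 153, 169, 88 and 108 tags, and that of the peaks in regions of their own eluate only was 15, 19, 11 and 12 tags. With 1 tag per position and strand the pileup cannot pass 2 fragment lengths, which is 358, 392, 310 and 294 tags, and the highest pileups were 355, 386, 299 and 290 tags. Over a high background this ceiling also limits the fold enrichment and compresses the ranks at the top. The median fold enrichment went the other way, with 3.70, 3.55, 3.26 and 3.22 in all-4 regions and 7.62, 8.21, 6.28 and 6.38 in eluate-only regions. Since the pileup was not divided by depth, it was also ranked within each list as a percentile. The median percentile of all-4 peaks was 72.2, 77.5, 75.7 and 84.6, which exceeded that of eluate-only peaks by 30.6 on average over the 4 libraries. Outside the high-background regions the excess was 22.1. There the fold enrichment was higher in all-4 than in eluate-only regions in every library, for example 10.2 against 8.21 in HTE_1 and 11.1 against 6.92 in LTE_2.

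Taken over all autosomal peaks of a library, those of the high eluate were wider than those of the low eluate. The median width was 263 and 282 bp in the high and 210 and 183 bp in the low libraries, a log2 difference of 0.47 (exact permutation test, p = 0.333). Peaks cannot be narrower than the estimated fragment, which was longer in the high libraries, and 8.70% and 9.03% of the high and 20.01% and 24.9% of the low peaks had exactly this least width. In excess of the fragment length the medians were 84 and 86 bp against 55 and 36 bp, a log2 difference of 0.93 with the eluates again not overlapping (exact permutation test, p = 0.333). The joined regions had a median width of 315 bp in the high-only, 253 bp in the low-only and 490 bp in the all-4 class. An all-4 region joins peaks of 4 lists and an eluate-only region those of 2, so it is wider by construction. The single peaks had a median width of 344 bp in all-4 and 249.5 bp in high-only regions in HTE_1, and of 345 bp in all-4 and 197 bp in low-only regions in LTE_1. In all-4 regions the eluates were thus alike in peak width, with 372 bp in HTE_2 and 377 bp in LTE_2. In excess of the fragment length the medians there were 165 and 176 bp in the high and 190 and 230 bp in the low libraries, the opposite order. A joined width of 1 kb or more was reached by 28 high-only, 3 low-only and 423 all-4 regions, and 392 of these 423 were high-background. The widest region of each class was chr21:16958732-16960375 (bosTau8, 1644 bp, high-only), chr4:57414842-57416097 (1256 bp, low-only) and chr3:95023294-95026087 (2794 bp, all-4). Their genes were not looked up, since no annotation of bosTau8 was used here.

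Over all places together, the all-4 regions lay closer to each other than the eluate-only regions did. The median gap to the nearest region of the same class was 0.793 kb for all-4, 26.5 kb for high-only and 182 kb for low-only regions, and 69.2%, 15.7% and 12.4% of them had such a neighbour within 2 kb. In the high-background regions every class was packed, with median gaps of 0.634 kb for all-4, 1.71 kb for high-only and 2.64 kb for low-only regions. There 93.0%, 91.2% and 80% had a neighbour of their class within 10 kb. Outside the high-background regions the all-4 class was the smallest and its median gap the widest, at 935 kb against 42.7 kb for high-only and 324 kb for low-only regions. Its share with such a neighbour within 2 kb was still the largest there, at 9.92% against 7.02% and 4.26%. In single libraries, 47.8% and 40.9% of the high and 41.4% and 32.2% of the low peaks had a neighbour of the same library within 2 kb, and these values overlapped (exact permutation test, p = 0.667). The difference of 7.52 percentage points was 2.95 without LTE_2, 4.06 without HTE_1 and 12.1 without LTE_1. Outside the high-background regions the shares were 12.4% and 12.3% against 8.95% and 9.76%, which did not overlap (exact permutation test, p = 0.333). The longest run of one class with gaps of at most 10 kb and no region of another class between comprised 6 high-only regions at chr3:120823336-120842116, 6 low-only regions at chr29:191939-197497 and 15 all-4 regions at chr5:114121050-114143375.

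The high-only regions were concentrated at the far end of the chromosomes, towards the highest coordinates. Bovine autosomes are acrocentric, with the centromere close to one end, but the files do not say which end that is. Each chromosome was taken to span from its first base to the last base of any peak in the series, and this division was chosen after the values were seen. The last 10% of the span held 41.6% of the high-only regions (Wilson 95% interval 40.1 to 43.0%), 20.6% of the low-only (18.9 to 22.4%) and 16.0% of the all-4 regions (14.8 to 17.2%). Outside the high-background regions these shares were 47.9%, 21.3% and 17.2%. At the near end the order was different, and the first 10% held 9.01% of the high-only, 18.0% of the low-only and 18.7% of the all-4 regions outside the high-background places. The middle 20% of the span held 6.86% of these high-only and 11.8% of these low-only regions.

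**Figure D2:**
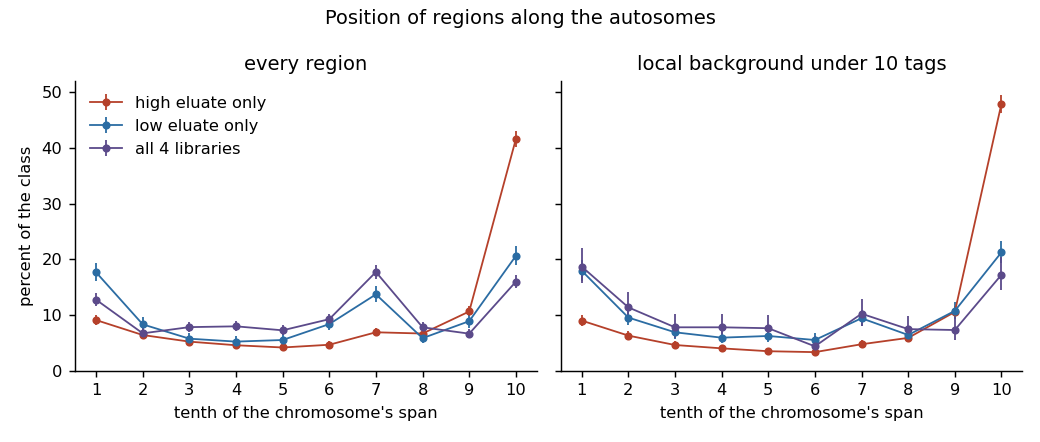
Share of the regions of each class (percent, with Wilson 95% intervals for counting error) in each 10% step of the chromosome's span, summed over 29 autosomes, for every region and for those with a local background under 10 tags. The high-only line rises to 41.6% and 47.9% in the last 10%, while the low-only and all-4 lines stay near or below 20% there.

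The rise was present in single libraries and on nearly every chromosome. Of all autosomal peaks, 29.5% and 31.6% lay in the last 10% in HTE_1 and HTE_2, and 19.1% and 18.3% in LTE_1 and LTE_2, so the eluates did not overlap (difference of means 11.9 percentage points, exact permutation test, p = 0.333). Outside the high-background regions the values were 41.2% and 41.1% against 21.2% and 19.4%, a difference of 20.9 percentage points (exact permutation test, p = 0.333). In the tough beef, which took no part in defining the regions, the last 10% of the span held 27.3% and 29.6% of the peaks of HTO_1 and HTO_2 and 18.9% and 22.1% of those of LTO_1 and LTO_2 (exact permutation test, p = 0.333). The medium libraries, between 29.6% and 30.7%, were near the high ones. By chromosome and outside the high-background regions, the share of high-only regions in the last 10% exceeded that of low-only regions on 28 of 29 autosomes. It ranged from 20% on chromosome 28 to 71.9% on chromosome 9, with a median of 48.3%, and the median for low-only regions was 19.0%. Chromosome 28 was the exception, with 5 of 25 high-only and 14 of 46 low-only regions there.

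Chromosome 25 stood apart in the high eluate. It held 4.04% and 4.19% of the peaks of HTE_1 and HTE_2 and 2.23% and 2.28% of those of LTE_1 and LTE_2, a ratio of mean shares of 1.83. In tough beef the values were 3.64% and 3.79% in HTO and 2.40% and 2.79% in LTO. Both high libraries lay above both low libraries on 9 chromosomes (31.0% of the 29) and both low above both high on 9 (31.0%), while the other 11 overlapped. After chromosome 25, the ratio of mean shares was highest on chromosome 23 (1.203, with 2.22% and 2.48% against 1.80% and 2.103%) and on chromosome 26 (1.15, with 1.65% and 2.05% against 1.60% and 1.62%). The low eluate led most on chromosome 15, with 2.75% and 2.91% against 2.03% and 2.20% and a ratio of 0.75, on chromosome 14 with 4.26% and 3.83% against 3.24% and 3.14%, and on chromosome 28 with 2.03% and 2.24% against 1.86% and 1.71%. Of the chromosomes on either side, 7 in each direction kept it outside the high-background regions, and the ratio was then 2.12 on chromosome 25 and 0.50 on chromosome 28.

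**Figure D3:**
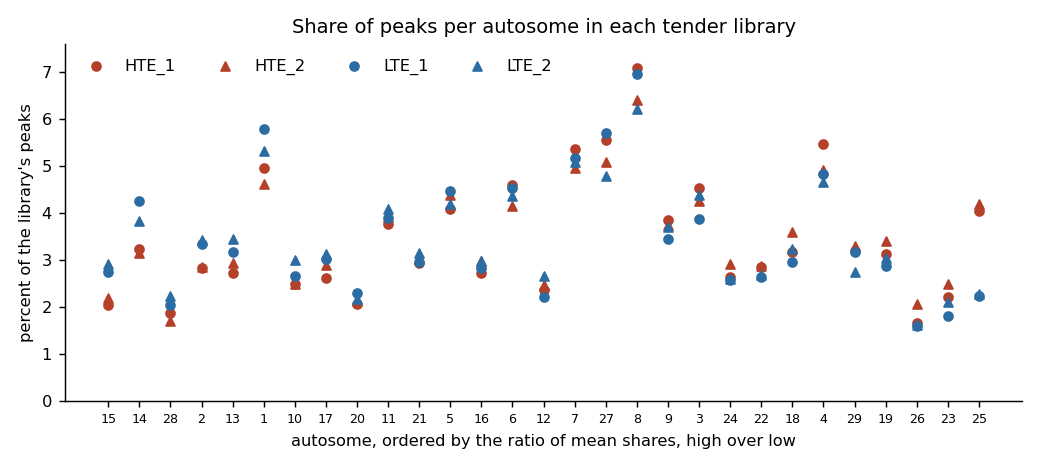
Percent of the autosomal peaks of each tender library on each autosome, with red for the high and blue for the low libraries and 1 point per library, ordered by the ratio of mean shares. Chromosome 25 at the right has both high libraries above 4% and both low libraries near 2.25%, and the groups are much closer on the other chromosomes.

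Counted as regions, chromosome 25 had 229 high-only and 30 low-only regions, 7.63 high-only for each low-only. Over the 29 autosomes this ratio had a median of 2.13 and was lowest on chromosome 14 (1.04). The density of high-only regions was 5.34 per Mb on chromosome 25 and 0.824 per Mb on chromosome 2, with a median of 1.69. Shorter chromosomes had the denser high-only regions, with a Spearman correlation with span of -0.62 over 29 chromosomes, against -0.51 for low-only and -0.06 for all-4 regions, values given as a description only. Low-only and all-4 regions were densest on chromosome 27, at 2.67 and 6.77 per Mb, where 91 of 121 and 290 of 307 were high-background. On chromosome 25, 43 of the 229 high-only regions lay in the first 4 Mb and 71 in the last 4 Mb, and 23 more lay between 18 and 20 Mb.

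Where both eluates had a peak, replicates of an eluate ranked the places alike and the eluates ranked them differently. Across the 3497 all-4 regions the Spearman correlation of the pileup was 0.99 between HTE_1 and HTE_2 and 0.97 between LTE_1 and LTE_2, and between 0.44 and 0.45 for the 4 pairs of a high with a low library. Regions of one library share its depth and neighbouring regions share tags, so these are descriptions. In the 2882 high-background regions the values between eluates were 0.12 to 0.14, while those within an eluate were 0.98 and 0.96. In the other 615 regions they were 0.60 to 0.65 between and 0.93 and 0.96 within eluates. Both high libraries had the higher percentile in 1088 regions (31.1%) and both low libraries in 1364 (39.0%). In high-background regions both directions were near balance, at 36.1% and 36.8%. Outside them the low libraries led in 302 of the 615 regions (49.1%) and the high in 48 (7.80%). A percentile depends on the weaker peaks of its own list, and LTE_2 had the most of these.

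The summits moved as well. In the 3029 all-4 regions with a single peak in every library, the median distance between summits was 16 bp within the high and 17 bp within the low eluate, and 51 to 62 bp between eluates. In the high-background regions it was 16 and 18 bp within and 60 to 67 bp between eluates. In the 556 others it was 18 and 12 bp within and 21 to 28 bp between.

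The all-4 regions with the most unequal ranks were all outside the high-background places, which the choice by percentile difference favours. In the high-background places the 10th percentile of all-4 peaks was 59.7, 67.1, 63.0 and 75.4 in HTE_1, HTE_2, LTE_1 and LTE_2. This leaves less room for a difference in rank there. At chr17:52274070-52274545 the pileup was 81 and 99 tags in HTE_1 and HTE_2 and 7 tags in each low library. It was 33 and 50 against 6 and 7 tags at chr27:41474624-41475451, and 28 and 48 against 7 and 8 at chr14:74772100-74772694. In all 3 both high libraries stood well above both low ones, and HTO_1 and HTO_2 had a peak there too, as did 1 of the LTO libraries at each. In the opposite direction the pileup was 7 and 9 tags in the high and 21 and 25 in the low libraries at chr11:44211451-44212341, and 7 and 8 against 17 and 16 at chr10:100404813-100405551. The third was chr13:11174585-11174901, with 8 and 9 against 23 and 26 tags. Both LTO libraries had a peak at these 3, and HTO_2 had one at the regions on chromosomes 10 and 13 and HTO_1 at that on chromosome 13.

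Successive summits of peaks with a local background of 10 tags or more were spaced in a regular way in the high eluate. This set was taken peak by peak and holds 4647 peaks in HTE_1, where the high-background regions hold 4795. Of the successive pairs of summits, 10.6% in HTE_1 and 8.51% in HTE_2 lay 500 to 600 bp apart, 8.53% and 8.13% lay 800 to 900 bp apart, and 7.95% and 8.17% lay 1300 to 1400 bp apart. Between these distances the shares were lower, with 4.72% and 4.21% at 650 to 750 bp and 2.90% and 3.04% at 1000 to 1100 bp. In the low eluate the distribution was flatter up to the last of these distances. There the shares in LTE_1 and LTE_2 were 5.22% and 5.84%, 4.88% and 5.74%, and 5.85% and 5.40% in the first named windows, and 4.83% and 4.74%, and 4.77% and 5.17% in those between. These windows were chosen after the distribution was seen. The median spacing was 1322.5 and 1371 bp in the high and 1374 and 1260 bp in the low libraries, so the eluates overlapped in this value. For peaks with a local background under 10 tags the median spacing was between 59.1 and 203 kb, and no more than 0.157% of the pairs lay 1300 to 1400 bp apart.

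**Figure D4:**
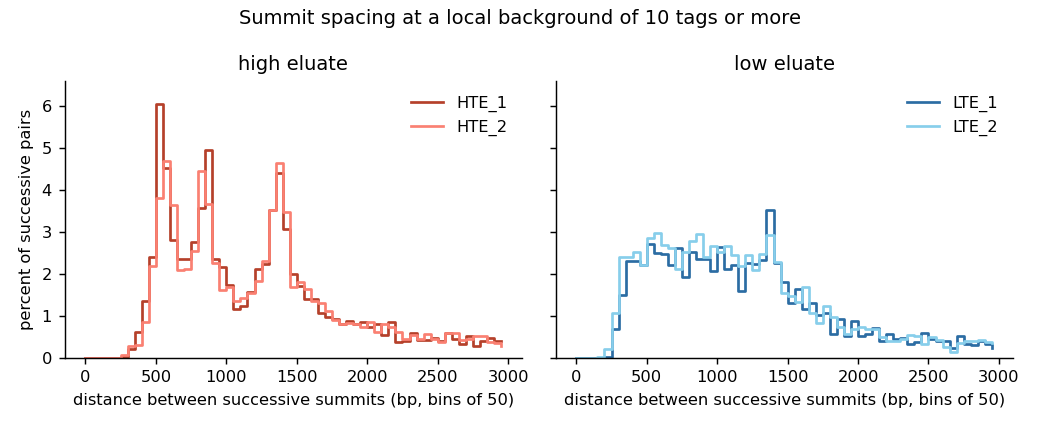
Distance between successive summits on a chromosome (bp, bins of 50 bp) as percent of all successive pairs, for peaks with a local background of 10 tags or more, in the 2 high and the 2 low libraries. Both high libraries show 3 maxima, within 500 to 600, 800 to 900 and 1300 to 1450 bp, and the low libraries are flatter with a rise at 1350 to 1400 bp.

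High-background regions formed clusters that differed in their numbers of high-only and low-only regions. Joined at gaps of at most 10 kb, the 5548 regions gave 574 clusters, of which 135 held 10 or more regions and together 78.9% of all high-background regions. Every one of these 135 clusters contained all-4 regions. In 82 of them high-only regions outnumbered low-only, in 38 low-only outnumbered high-only, and in 15 the numbers were equal. Over all 5548 high-background regions, high-only likewise outnumbered low-only, at 798 against 435, and 2882 were all-4. The following clusters were picked for their size and contrast after their values were seen. The largest, chr27:28460228-28937916, held 340 regions with 27 high-only, 55 low-only and 190 all-4. At chr3:82708547-82912382 there were 57 high-only and 4 low-only regions, and at chr8:56713170-56855493 there were 38 and 1. The opposite was found at chr29:30224969-30385951, with 1 high-only and 38 low-only, and at chr1:145293583-145452509, with 1 and 29. Nearer balance was chr7:105823388-105933502, with 7 high-only, 10 low-only and 43 all-4 regions.

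The eluate-only regions of highest pileup were all high-background regions, which the choice by percentile favours. In HTE_1, HTE_2, LTE_1 and LTE_2 the median percentile of eluate-only peaks was 79.8, 83.7, 82.0 and 89.3 in high-background regions. Outside them even the 90th percentile was 50.5, 59.3, 53.0 and 68.9. The 3 high-only regions whose lower percentile was highest were chr6:89216314-89216695, with 274 and 308 tags in HTE_1 and HTE_2, chr24:56955755-56956125 with 274 and 297 tags, and chr14:400783-401170 with 259 and 290 tags. Their local backgrounds ranged from 81.0 to 202 tags, and the merged LTE list, called by the authors on both low libraries together, had a peak at each. The 3 low-only regions chosen in the same way were chr29:30284010-30284216 with 264 and 263 tags in LTE_1 and LTE_2, chr7:56576856-56577053 with 259 and 260 tags, and chr29:30294450-30294963 with 258 and 254 tags. None of these 3 had a peak in HTO_1 or HTO_2, all had one in LTO_1, the region on chromosome 7 had none in LTO_2, and the last region had one in the merged HTE list. The 3 high-only regions had a peak in HTO_1, HTO_2 and LTO_1, and those on chromosomes 6 and 24 also had one in LTO_2. Pileup and background were known only in libraries with a peak, so the tags of the other eluate at these places were not seen. Whether a missing peak there was an absence of tags or a missing call over a high background was not tested. Over all classes, the merged LTE list had a peak in 27.6% of the high-only regions and the merged HTE list in 24.5% of the low-only regions. The shares over all 28422 regions were 75.2% for the merged LTE and 55.0% for the merged HTE list. These regions include those called in the low libraries, which the high-only class leaves out. They also include those called in the high libraries, which the low-only class leaves out, so this is not a like comparison. Of the regions called in HTE_1 alone or HTE_2 alone, the merged LTE list had a peak in 20.4%. Of those called in LTE_1 alone or LTE_2 alone, the merged HTE list had one in 8.26%. Both were below the shares in the high-only and low-only regions.

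Regions of one eluate in tender beef were mostly covered by peaks of the same eluate in tough beef. Of the 4472 high-only regions, 74.3% and 82.6% had a peak in HTO_1 and HTO_2, and 28.7% and 34.2% in LTO_1 and LTO_2. The difference of means was 47.0 percentage points with no overlap between the eluates (exact permutation test, p = 0.333). Of the 2100 low-only regions, 5.71% and 7.43% had a peak in HTO_1 and HTO_2, and 74.5% and 79.1% in LTO_1 and LTO_2, a difference of 70.2 points (exact permutation test, p = 0.333). The LTO lists were longer, with 27783 and 28599 autosomal peaks against 10178 and 11879 in HTO. Over every region of the 4 tender libraries the shares were 32.5% and 36.5% in HTO and 43.6% and 46.4% in LTO. Both values depended on single tender libraries. Without LTE_1 the low-only class also took in the regions of LTE_2 alone, and its difference was 35.7 points. It was 47.8 points without LTE_2, 69.3 without HTE_1 and 68.7 without HTE_2. The high-only difference was 31.6 points without HTE_1, 38.9 without HTE_2, 45.0 without LTE_1 and 39.7 without LTE_2. Between 95.0% and 99.2% of the all-4 regions had a peak in each of the HTO and LTO libraries.

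**Figure D5:**
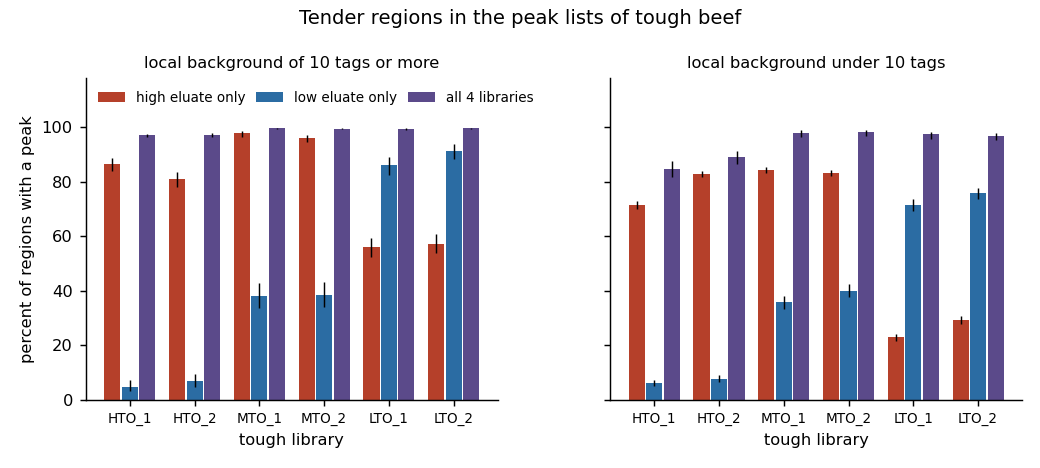
Percent of the tender high-only, low-only and all-4 regions that had a peak in each library of tough beef, with Wilson 95% intervals for counting error, for high-background regions and for the others. The high-only bars stand above the low-only bars in the high (HTO) and medium (MTO) libraries and below them in the low (LTO) libraries.

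All 4 medium libraries covered more of the high-only than of the low-only regions. High-only regions had a peak in 83.4% and 88.1% of cases in MTE_1 and MTE_2 and in 86.7% and 85.6% in MTO_1 and MTO_2. For low-only regions the values were 61.8% and 61.0% in MTE and 36.2% and 39.7% in MTO. Over every region they were 59.3% and 60.8% in MTE and 51.6% and 52.5% in MTO, so the low-only share was near this level in MTE and below it in MTO. In the high-background places 56.0% and 57.3% of the high-only regions had a peak in LTO_1 and LTO_2, whereas outside them it was 22.8% and 29.2%. The shares over every region were 83.6% and 85.3% in these places and 33.9% and 36.9% outside. Every region includes those called in the low libraries, which the high-only class leaves out, so this is not a like comparison. For regions called in 1 high library alone, the shares in LTO_1 and LTO_2 were 23.4% and 33.9% in these places and 19.1% and 23.1% outside. For low-only regions the shares in HTO_1 and HTO_2 were low in both places, at 4.60% and 6.67% in and 6.01% and 7.63% outside the high-background places. Over every region HTO_1 and HTO_2 had a peak in 77.2% and 75.3% of the high-background regions and in 21.7% and 27.1% of the others. These in turn include regions called in the high libraries, which the low-only class leaves out. Of the regions called in 1 high library of tender beef alone, 23.3% and 34.5% had a peak in HTO_1 and HTO_2. Of those called in 1 low library alone, 29.9% and 31.0% had a peak in LTO_1 and LTO_2. These shares were below those over every region in the same libraries, given above.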

How the data were processed

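MBD-seq peak lists of 4 libraries of tender beef were used, and 8 other libraries were used for overlap. The authors aligned reads to bosTau8 with BWA (version 0.7.7 in the submitters' processing notes), kept unique reads and called peaks per library with MACS2 2.1.1.20160309, without an input control, with at most 1 tag per position. Merged lists came from MACS2 2.1.0.20150731. The deposited columns are the pileup (a signal in tags, not divided by depth), the fold enrichment (a ratio to local background) and the −log10 of the p-value and of the q-value, all per the file headers. From these, regions, classes, gaps and percentiles were derived in Python 3.11.15 (pandas 2.3.3, numpy 2.4.6, scipy 1.17.1). Joining was checked against bedtools 2.31.1, which gave the same 28422 regions, and tested on simulated data. Shares carry Wilson 95% intervals, and differences between libraries were put to a two-sided exact permutation test, with numbers and widths as log2 values. Depth after duplicate removal was 4526538 to 7165381 tags per tender library.

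Named regions were, for each eluate, the 3 whose lower percentile was highest, the 3 all-4 regions with the largest percentile difference in each direction, the widest of each class and the longest runs. Named chromosomes were the 3 with the largest ratio of shares in each direction. Regions and comparisons were chosen with earlier results of these data known. Alternatives were −log10 q of 3 and 5, fold enrichment of 3, equal numbers of peaks, chromosome X, wider or stricter joining, merged lists, each library left out and a replicate block. Leaving out high-background regions, the width in excess of the fragment, other background limits and the division of chromosomes into steps of 10% were added after the data were seen. Sequence, CpG density and genes were not analysed here.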

Additional observations from a re-analysis of the deposited data

Results flagged for a closer look

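The eluates took opposite sides in tender and tough beef on chromosomes 19, 24 and 26, where both high libraries lay above both low libraries in tender beef and below them in tough beef. The mean share of peaks in the high minus the low libraries was 0.305 percentage points in tender and -0.467 in tough beef on chromosome 19. It was 0.198 and -0.165 on chromosome 24, and 0.239 and -0.252 on chromosome 26. The difference between tender and tough beef was not tested. Of the 9 chromosomes with the high eluate above in tender beef, 3 kept this side in tough beef, 3 had the opposite side and 3 overlapped, and of the 9 with the low eluate above 7 kept it and 2 overlapped.

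Peaks on the mitochondrial genome, which entered no comparison, numbered 4 in HTE_1 and 4 in LTE_2, above a limit of 3 counts, and 3 in HTE_2 and 3 in LTE_1.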

How the results depend on the processing

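Over 17 results, 172 values were recomputed, of which 153 were rated the same. Tested differences had to keep their direction and side of the threshold, and counts had to stay within 1.5 times. The percentile excess and width ratio of all-4 peaks had to move by less than the SD over libraries. The high-background share had to stay in its Wilson interval. Width and neighbour values of the merged lists had only to keep their direction. No test could pass the threshold under any setting, so none of this speaks for stability of a call.

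The log2 difference in peaks per library (-0.10) turned to 0.17 at −log10 q of at least 5 and to 0.36 per 1000000 tags, and ranged from -0.51 to 0.32 with a library left out, being 0.01 without HTE replicate 1 and 0.32 without LTE replicate 2. At a fold enrichment of at least 3, the all-4 regions fell to 1719 and the log2 width ratio of all-4 over eluate-only peaks was 0.91 in place of 0.62. With high-background regions left out these were 615 and 0.35, and the percentile excess was 22.1 in place of 30.6. With 9555 peaks from each library, 14 chromosomes had the low eluate above. The merged lists gave 10109 high-only, 54702 low-only and 10197 shared regions, from 1 list per eluate. With a library left out, high-only regions numbered 4735 to 7414, low-only 2270 to 11360, and the percentile excess was 29.4 to 36.0, where an eluate with 1 library left needs only that library. With limits of 5 and 20 tags the high-background share of all-4 regions was 86.0% and 74.7%. The causes were not tested beyond what these settings remove by construction.

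The eluates come from the same 2 animals and share replicate numbers, but no source states that equal numbers mark 1 animal. Under a replicate block (exact sign-flip test, smallest p 0.5) the differences stayed -0.10 for peaks (p = 1), 0.47 for width, 7.52 points for neighbours within 2 kb, and 47.0 and 70.2 points for the high-only and low-only regions in tough beef (p = 0.5 each). Differences between replicates correlated between eluates at 0.53 over chromosomes and -0.05 over regions in tender beef, and at 0.15 over chromosomes in tough beef. The median pileup was 10 tags in LTE_2 and 23 in HTE_1, so many of the 9216 regions of LTE_2 alone rest on few tags.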
